A study of Mus musculus with 12 samples.

Results

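Pou6f1 encodes a transcription factor of the POU family and lies on mouse chromosome 15, on the same chromosome as Krt1, the keratin gene inactivated in these mice. Pou6f1 and 44 other genes on either side of Krt1 were followed in newborn mouse epidermis and full-thickness skin. The 45 genes were chosen by name as neighbours of Krt1, and Pou6f1 was chosen because its signal was lost in Krt1-/- samples, so its values are a description and carry no test. A detection p-value is the chance of a signal at least as high from background alone. A probe of a listed gene was used when this value fell below 0.05 on 3 or more of the 12 arrays. This left 59 of 84 probes and 39 of the 45 genes, out of 21712 probes and 12099 genes in all. Atf1, Scn8a and Nr4a1 had probes but none that passed this filter, and Bin2, Soat2 and Zfp740 were not analysed here. The question was whether shifts shared by both tissues, such as that of Pou6f1, gather near the targeted gene.

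The samples came from newborn C57BL/6 mice (postnatal day 0), and each genotype, Krt1+/+ or Krt1-/-, was measured on 3 arrays of epidermis and 3 of full-thickness skin. Krt1+/+ mice carry both working copies of the keratin 1 gene and Krt1-/- mice carry none. C57BL/6 is named as a background, and the sources used here do not give the strain of the chromosome around the inactivated gene. Total RNA of each sample was read on a one-colour Illumina bead array, so a value stands for the whole tissue. In such bulk samples, fewer cells of a type and less RNA per cell cannot be told apart.

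A gene is altered in mice by recombination in cultured embryonic stem cells, and the chromosome around it then passes from parent to offspring with the altered allele. Where those cells and the strain used for breeding differ, variants of neighbouring genes can travel with the allele through many generations of backcrossing, and the nearer a gene lies the more often it does so. The keratin genes of type II stand side by side around Krt1, and the genes beyond them on both sides have unrelated jobs, from transcription and RNA binding to iron transport. POU factors bind DNA through a POU-specific domain and a homeodomain, and Pou6f1 is known mainly from the nervous system.

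In the order of RefSeq's gene table (GRCm38.p6) the members ran from Lima1, the protein-coding gene number 50 before Krt1, to Itga5, number 49 after it. This stretch held 100 protein-coding genes. Of the members, 18 lay on the Pou6f1 side of Krt1 and 27 on the other. Pou6f1 was number 35 on its side, between Tfcp2 at 36 and Dazap2 at 34, with Smagp at 33. The members nearest to Krt1 were Krt8 and Krt18, at 6 and 7 on the other side, and the type II keratins in between were no members. At the edge of the detection filter, 3 kept probes (of Slc4a8, Spryd3 and Itga5) were detected on exactly 3 arrays, and 4 probes (of Larp4, Scn8a, Aaas and Calcoco1) were left out with 2.

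The promoters of Pou6f1 and of Tfcp2 and Smagp, members close to it that passed in the average of both tissues, are shown to place these genes on the chromosome and to let their start regions be compared. RefSeq (GRCm38.p6) places them on the minus strand at chr15:100599935-100600234 for Pou6f1, chr15:100551959-100552258 for Tfcp2 and chr15:100636891-100637190 for Smagp. Each runs 5′ to 3′ over 300 bases, 250 before the start of the gene and 50 after it. Capitals mark GC boxes (GGGCGG, or CCGCCC when read from the other strand) and, in Pou6f1, 1 octamer lacking its last base (ATGCAAA, or TTTGCAT on the other strand).

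Pou6f1: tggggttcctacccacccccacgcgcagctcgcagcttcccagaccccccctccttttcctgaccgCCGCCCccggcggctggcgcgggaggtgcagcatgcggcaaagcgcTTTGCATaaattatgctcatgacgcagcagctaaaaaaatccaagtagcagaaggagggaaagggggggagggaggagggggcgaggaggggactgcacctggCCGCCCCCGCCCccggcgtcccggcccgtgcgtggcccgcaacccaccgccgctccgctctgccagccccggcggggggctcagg
Tfcp2: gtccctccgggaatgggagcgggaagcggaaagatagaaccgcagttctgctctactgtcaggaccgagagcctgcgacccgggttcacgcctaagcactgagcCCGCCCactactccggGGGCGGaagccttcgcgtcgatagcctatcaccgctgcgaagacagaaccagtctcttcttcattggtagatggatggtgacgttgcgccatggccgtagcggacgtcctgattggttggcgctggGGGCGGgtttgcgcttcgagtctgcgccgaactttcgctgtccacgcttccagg
Smagp: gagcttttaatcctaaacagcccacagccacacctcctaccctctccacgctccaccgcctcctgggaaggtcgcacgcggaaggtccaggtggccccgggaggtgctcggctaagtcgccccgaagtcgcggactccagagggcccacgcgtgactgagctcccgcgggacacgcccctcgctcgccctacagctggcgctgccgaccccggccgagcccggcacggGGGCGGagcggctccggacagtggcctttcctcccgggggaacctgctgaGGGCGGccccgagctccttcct

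The octamer ATGCAAAT is the classical site of POU factors. Searched on both strands, the full octamer was in 1.74% of 32851 mouse promoters of this length and in 0 of the 50 promoters that the table held for 39 of the 45 members. The octamer without its last base, a motif chosen after the sequence was seen and contained in the full octamer, was in 4.63% of all promoters and in 1 of the 50, that of Pou6f1. The cAMP response element TGACGTCA, the site of Atf1 and Atf7, was in 1.79% of all and in 0 of the 50. A GC box, the site of Sp1 and its relatives, was in 35.7% of all promoters and in 34 of the 50 (68%), with 3 matches each in Pou6f1 and Tfcp2 and 2 in Smagp. The bases G and C made up 70.3% of the Pou6f1 promoter, 61.7% of that of Tfcp2 and 71% of that of Smagp. These matches describe letters and are not evidence of binding.

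Pou6f1 was read by probe ILMN_2589318, designed on transcript NM_010127. Its normalized log2 intensity was 6.89, 7.02 and 6.87 on the 3 Krt1+/+ epidermis arrays and 4.29, 4.24 and 4.22 on the Krt1-/- epidermis arrays. In skin it was 7.36, 6.53 and 7.37 on the Krt1+/+ arrays and 4.41, 4.45 and 4.33 on the Krt1-/- arrays. Every Krt1+/+ array lay above every Krt1-/- array in both tissues, with a gap wider than the range within either genotype.

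The probe was detected on 6 of 6 Krt1+/+ arrays and on 0 of 6 Krt1-/- arrays. Before any correction its intensity was 170 to 301 on the Krt1+/+ arrays and 92.2 to 104 on the Krt1-/- arrays, where the median probe of an array read 93.3 to 105.1. Against the detection limit of the arrays, Pou6f1 was at least 4.74-fold lower in Krt1-/- epidermis and at least 5.60-fold lower in Krt1-/- skin. Such a bound sets the mean of the brighter group against the higher of the lowest detected signal and the dim probe's own, array by array.

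On the log2 scale the Pou6f1 change was −2.68 in epidermis and −2.69 in skin. Both values end at the background of the arrays, so they do not measure whether the loss was equal in the tissues. A second Pou6f1 probe, ILMN_1215842, designed on AK006732, was detected on 0 of 12 arrays and read 82.2 to 104 intensity units, so it adds no measurement of the gene. The loss of Pou6f1 therefore rests on 1 probe. The sequences of the probes were not used here, so a sequence difference under this probe was not tested.

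**Figure D1:**
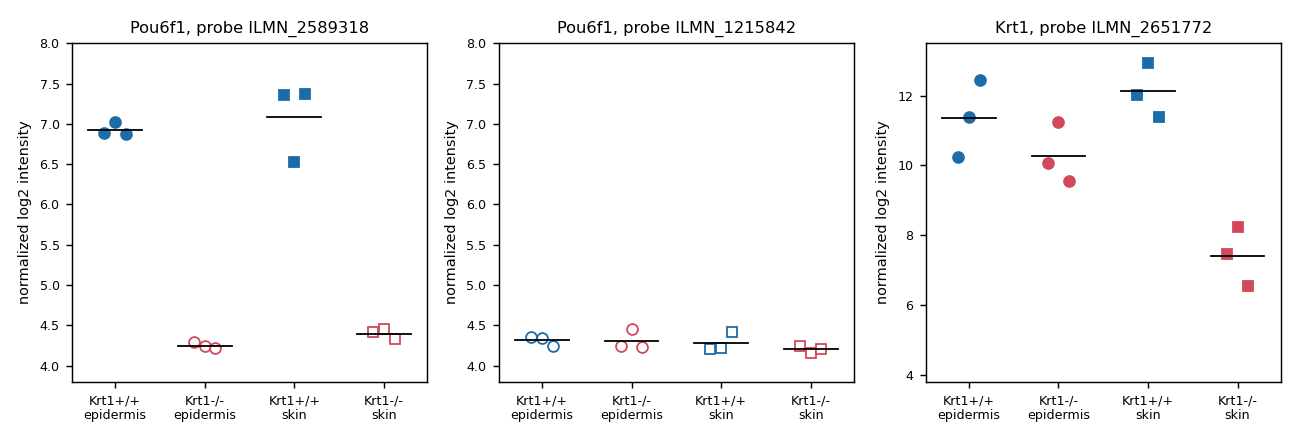
Normalized log2 intensity of both Pou6f1 probes and the Krt1 probe on each of the 12 arrays (circles epidermis, squares skin; blue Krt1+/+, red Krt1-/-; filled detected, open not detected; line, mean of 3). Probe ILMN_2589318 of Pou6f1 is open on all 6 Krt1-/- arrays and filled on all 6 Krt1+/+ arrays, the second probe is open on all 12, and Krt1 overlaps between genotypes in epidermis.

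Krt1 itself was read by probe ILMN_2651772, detected on all 12 arrays. Its raw intensity was 1417, 2404 and 5954 on the Krt1+/+ epidermis arrays and 1107, 2921 and 987 on the arrays labelled Krt1-/- epidermis. In skin it was 4329, 5915 and 1794 on the Krt1+/+ arrays and 279.9, 319 and 183 on the Krt1-/- arrays. The genotypes were apart in skin and overlapped in epidermis.

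In skin Krt1 fell by 4.71 (log2, adjusted p = 7.5e-05), and its change of −1.08 in epidermis did not pass (adjusted p = 0.18). All adjusted p-values given here are from limma with Benjamini-Hochberg adjustment over 21712 probes, and a probe passed when this was under 0.05. The sources used here do not say whether the probe reads the inactivated part. Each direction given for epidermis therefore rests on the labels of arrays on which Krt1 was still read. Pou6f1, in contrast, was undetected on all 3 arrays labelled Krt1-/- epidermis, as it was on all 3 of Krt1-/- skin.

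The arrays also separated by their place in the deposited table, whose first 6 sample columns hold Krt1+/+ epidermis and Krt1-/- skin and whose last 6 hold Krt1-/- epidermis and Krt1+/+ skin. Over 16240 probes undetected on every array, the deviations of arrays of the same 6 columns correlated at −0.0369 and −0.0182 between groups, and those across the columns at −0.156 to −0.130. Within a tissue, genotype and column set cannot be told apart. The difference between the genotype effects of the tissues and the column set cannot be told apart either, whereas an additive difference between column sets cancels in the average of both tissues. For this reason the average is given beside each tissue. Arrays detected 17184 to 19931 of 45281 probes, and those of a group correlated at 0.967 to 0.984. The labels do not state separate animals for the arrays of a group, so a p-value measures the spread between samples that may be technical.

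Among the member probes, 15 of 59 (25.4%, from 12 genes) passed in the average of both tissues, 6 higher and 9 lower in Krt1-/-, where 20.1% of all probes passed, 9.66% higher and 10.4% lower. In epidermis 26 of 59 (44.1%) passed, 14 higher and 12 lower, against 32.1% of all probes (16.2% higher and 15.9% lower). In skin 25 of 59 (42.4%) passed, 6 higher and 19 lower, against 28.0% (13.2% higher and 14.8% lower). Each of these counts includes Pou6f1, which had to be among them. The higher probes in the average and in epidermis include 1 of Dip2b, kept through its Krt1-/- arrays alone.

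Directions shared by both tissues were few, among the members as among all probes. Passing in each tissue in the same direction was 1 higher probe (1.69%), of Smagp, against 2.66% of all probes. The lower ones were 2 (3.39%), of Nfe2 and of Pou6f1, which was chosen for its fall, against 1.65% of all probes. A further 11 probes (18.6%) passed in both tissues in opposite directions, against 9.40% of all probes. No member had probes that passed in opposite directions within a tissue. With no p-value, arrays of the genotypes lay apart in both tissues for 3 higher probes (5.08%, 2 of Smagp and 1 of Prr13, against 3.97% of all). They also lay apart for 4 lower probes (6.78%, of Nfe2, Pcbp2, Pfdn5 and Pou6f1, against 3.73%).

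The median change of the 59 probes was −0.11 on the log2 scale in the average, and −0.10 without Pou6f1, against −0.03 for all probes. In epidermis it was −0.02 against 0.02, and in skin −0.24 against −0.07. Of the 39 genes, 29 had a probe that passed in at least 1 tissue. The other 10 were Acvr1b, Acvrl1, Cbx5, Itgb7, Krt18, Krt8, Letmd1, Lima1, Slc4a8 and Tns2, whose 13 probes ranged from −0.61 to 0.70 in epidermis and from −0.45 to 0.63 in skin.

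**Figure D2:**
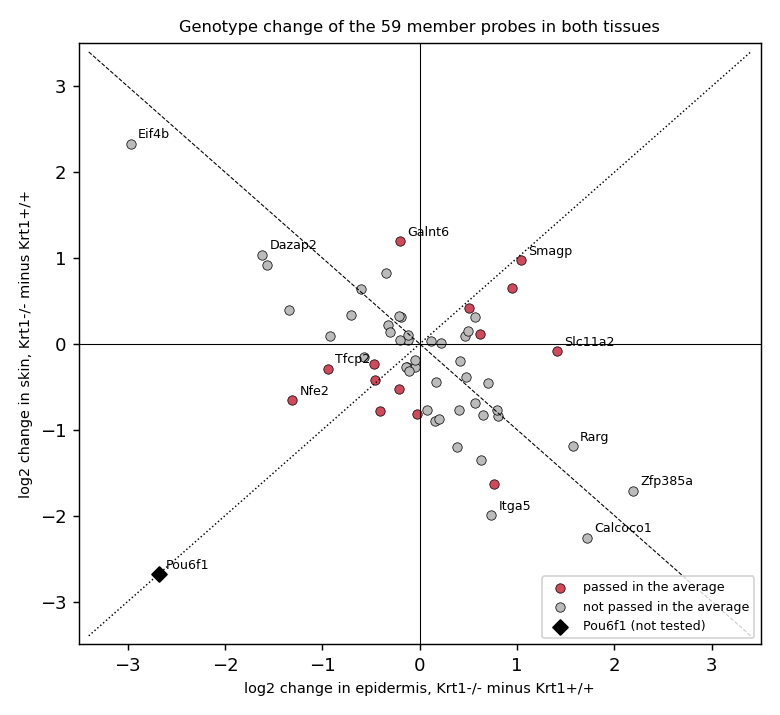
Log2 change (Krt1-/- minus Krt1+/+) of the 59 member probes in epidermis (horizontal) and in skin (vertical), red where the average of both tissues passed, grey where it did not, and black for Pou6f1; dotted line, equal change; dashed line, opposite change of equal size. Pou6f1 lies on the dotted line at −2.68 and −2.69, while Eif4b at −2.97 and 2.33 and Calcoco1 at 1.72 and −2.26 lie near the dashed line.

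Of the 13 listed genes that act in transcription or chromatin, a group formed after the values were known, 10 were measured by 12 probes. In the average 0 of these were higher and 4 were lower, against 9.66% and 10.4% of all probes. The 4 were of Tfcp2, Atf7, Nfe2 and Pou6f1, the last chosen for its fall. In skin 1 was higher and 6 were lower, against 13.2% and 14.8% of all probes. In epidermis 4 were higher and 5 lower, against 16.2% and 15.9%. Pou6f1 is among the lower probes in each tissue.

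Nfe2 encodes the p45 subunit of NF-E2, which drives globin and platelet genes in blood cell precursors, and lies at 45 on the side of Krt1 away from Pou6f1. Its probe read 5.58, 5.76 and 5.37 in Krt1+/+ epidermis and 4.16, 4.31 and 4.31 in Krt1-/- epidermis, where it was undetected on all 3 arrays. In skin it read 5.15, 5.85 and 5.20 against 4.62, 4.55 and 5.05. The genotypes did not overlap in either tissue, and Krt1-/- skin replicate 3 and Krt1+/+ skin replicate 1 came closest to each other.

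Nfe2 fell by 0.98 on the log2 scale in the average (adjusted p = 5.8e-04), by 1.31 in epidermis (adjusted p = 4.5e-04) and by 0.66 in skin (adjusted p = 0.032). It was at least 1.85-fold lower in Krt1-/- epidermis. Of the erythroid markers, 0 of the 4 measured passed in either tissue or in the average, and their median change was 1.09 in epidermis, with Hba-a1 at 2.12 (adjusted p = 0.055). Their summed intensity was 513 to 11586 in Krt1+/+ epidermis, 8460 to 9930 in Krt1-/- epidermis, 16206 to 20950 in Krt1+/+ skin and 9920 to 20363 in Krt1-/- skin. Epb42 was undetected on every array. The part of blood cells in the Nfe2 change was not tested.

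Tfcp2, the next gene to Pou6f1 and a widely expressed transcription factor of the grainyhead family, read 5.91, 5.82 and 6.27 in Krt1+/+ epidermis and 5.12, 4.77 and 5.29 in Krt1-/- epidermis. In skin it read 5.67, 5.68 and 5.96 against 5.12, 5.51 and 5.82. The genotypes were apart in epidermis and overlapped in skin. Tfcp2 fell by 0.94 in epidermis (adjusted p = 0.0042) and by 0.62 in the average (adjusted p = 0.011), and its change of −0.29 in skin did not pass (adjusted p = 0.34). Csrnp2, a nuclear protein encoded just beyond Tfcp2, fell by 0.57 in epidermis (adjusted p = 0.030), and its average of −0.36 did not pass (adjusted p = 0.065).

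Smagp encodes a small transmembrane protein found at cell to cell contacts of epithelia. Probe ILMN_1247198 read 8.68, 9.58 and 9.86 in Krt1+/+ epidermis and 10.52, 10.60 and 10.11 in Krt1-/- epidermis. In skin it read 8.94, 9.44 and 8.82 against 9.92, 10.25 and 9.95. All Krt1-/- arrays lay above all Krt1+/+ arrays of the same tissue.

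Smagp rose by 1.00 on the log2 scale in the average (2.01-fold, adjusted p = 0.0030), by 1.04 in epidermis (adjusted p = 0.011) and by 0.97 in skin (adjusted p = 0.018). The second kept probe, ILMN_3130403, rose by 0.80 in the average (adjusted p = 0.0088) and by 0.94 in epidermis (adjusted p = 0.015), and its 0.66 in skin did not pass (adjusted p = 0.081). The skin call of the first probe was lost without Krt1+/+ skin replicate 1 (adjusted p = 0.064), without Krt1+/+ skin replicate 3 (0.066) and without Krt1-/- skin replicate 2 (0.058), and with no detection filter (0.0501), while the average passed whichever array was left out.

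Prr13, whose product is a proline-rich protein, read 10.38, 10.81 and 10.94 in Krt1+/+ epidermis and 11.09, 11.38 and 11.20 in Krt1-/- epidermis, and 10.77, 10.94 and 11.07 against 11.50, 11.39 and 11.17 in skin. The genotypes were apart in both tissues. It rose by 0.47 in the average (adjusted p = 0.021). Leaving out Krt1-/- epidermis replicate 2 (adjusted p = 0.054), Krt1+/+ skin replicate 1 (0.052) or Krt1-/- skin replicate 1 (0.052) ended this call.

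Slc11a2 encodes the divalent metal transporter DMT1, which carries iron into cells. Its 3 kept probes read the gene differently. Probe ILMN_2578829 read 4.44, 4.56 and 4.78 in Krt1+/+ epidermis and 6.25, 6.00 and 5.76 in Krt1-/- epidermis, and it rose by 1.41 there (adjusted p = 1.6e-04) and by 0.66 in the average (adjusted p = 0.0049), with −0.09 in skin. The brightest probe, ILMN_1243129, did not pass in epidermis (0.16) and fell by 0.90 in skin (adjusted p = 0.0087). Probe ILMN_2665063 rose by 0.49 in epidermis (adjusted p = 0.042). Which transcripts each probe reads was not tested.

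The listed genes placed under RNA binding and translation, Dazap2 among them, were 6 genes with 11 kept probes, a group formed after the values were known. They gave 0 higher and 2 lower probes in the average, both of Pcbp2, near the 20.1% of all probes that passed. In epidermis 1 was higher and 5 were lower, against 16.2% and 15.9% of all probes. In skin 3 were higher and 3 lower, against 13.2% and 14.8%. Pcbp2 binds C-rich stretches of RNA and steadies messenger RNAs. Its probe ILMN_2843355 read 11.54, 11.45 and 11.46 in Krt1+/+ epidermis and 10.97, 10.87 and 11.22 in Krt1-/- epidermis, and 11.18, 11.36 and 11.26 against 10.65, 10.98 and 10.89 in skin. The genotypes were apart in both tissues.

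This probe fell by 0.44 in the average (adjusted p = 0.013), and the other, ILMN_2599777, fell by 0.42 (adjusted p = 0.018). The latter overlapped between genotypes in epidermis (−0.02) and fell by 0.82 in skin (adjusted p = 0.0020). Scaling each array by its median in place of quantile normalization ended both average calls, with adjusted p = 0.44 and 0.68.

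Pfdn5, a subunit of the prefoldin complex that hands newly made actin and tubulin to their folding machinery, fell by 0.35 and 0.37 by its 2 probes in the average (adjusted p = 0.042 and 0.040). With median centring these values were −0.08 and −0.10 (adjusted p = 0.71 and 0.67). Map3k12, a kinase that signals to JNK and is best known from neurons, fell by 0.60 by 1 of 2 probes (adjusted p = 0.026) and was 0.06 by the other (adjusted p = 0.80). Galnt6, which starts O-linked sugar chains on proteins, rose by 0.50 in the average (adjusted p = 0.032) through a rise of 1.20 in skin (adjusted p = 0.0010), with −0.21 in epidermis. Both Dip2b probes were undetected on all Krt1+/+ arrays and were kept through their Krt1-/- arrays alone, so their values are a description with no test. They were at least 1.26-fold and 1.27-fold higher in Krt1-/- epidermis. Of the 2, ILMN_2611098 is counted among the 15 probes that passed in the average. These average calls lay close to the threshold, and leaving out 1 array ended that of Pfdn5 in 8 of 12 runs for either probe, of Map3k12 in 5 of 12, of Galnt6 in 7 of 12 and of Dip2b in 9 of 12. The adjusted p then reached 0.058 to 0.10 for Pfdn5, 0.055 to 0.069 for Map3k12 and 0.059 to 0.077 for Galnt6. For Map3k12 the arrays were Krt1+/+ epidermis replicate 2, Krt1-/- epidermis replicate 3, Krt1+/+ skin replicates 1 and 3 and Krt1-/- skin replicate 1. For Galnt6 they were Krt1+/+ epidermis replicates 1 and 3, Krt1-/- epidermis replicate 2, Krt1+/+ skin replicates 1 and 2 and Krt1-/- skin replicates 1 and 3. Without a detection filter the adjusted p was 0.060 for Map3k12 and 0.056 for Galnt6, and without background correction it was 0.096 for Galnt6. The Dip2b call was also lost without background correction and with median centring. Dip2b kept its call without Krt1+/+ epidermis replicate 3, Krt1-/- epidermis replicate 2 or Krt1-/- skin replicate 3. Both Pfdn5 probes kept theirs without Krt1+/+ epidermis replicate 1, Krt1+/+ skin replicate 1 or Krt1-/- skin replicate 3.

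**Figure D3:**
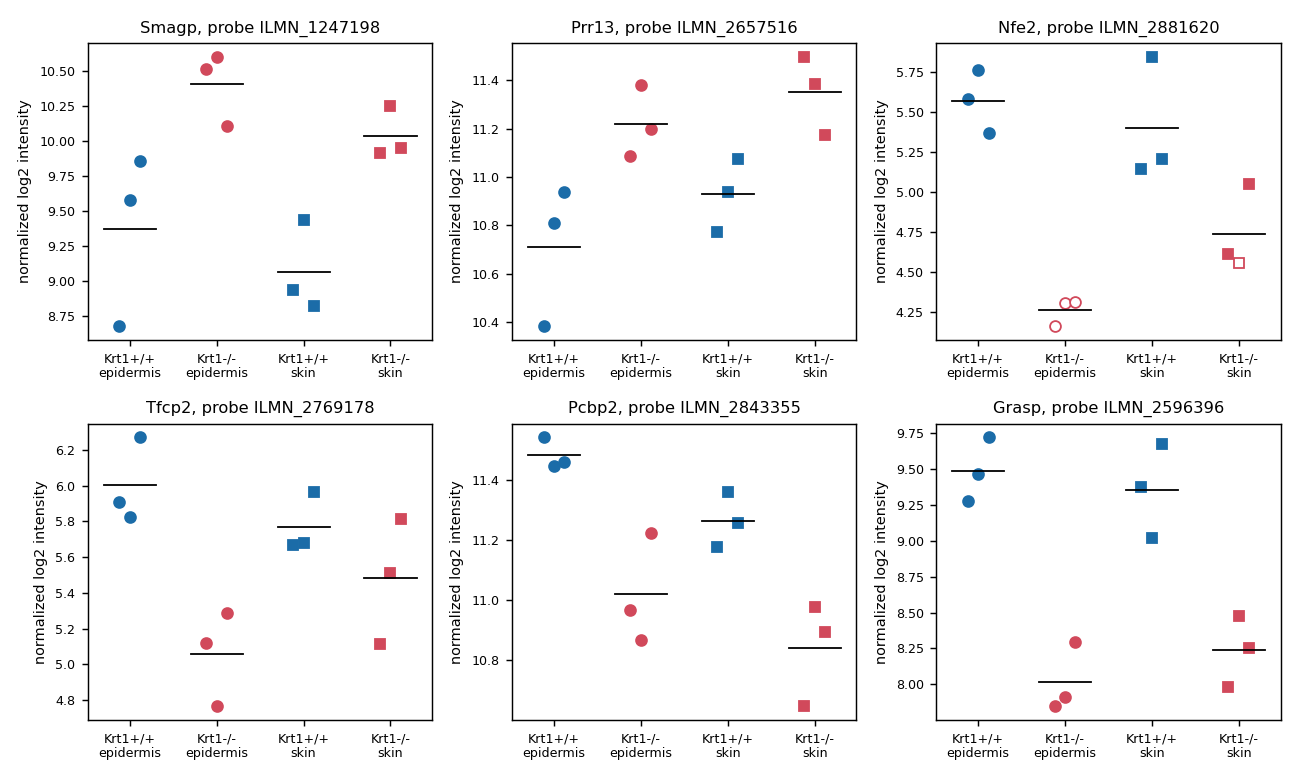
Normalized log2 intensity on each array for 5 members whose average over both tissues passed (Smagp, Prr13, Nfe2, Tfcp2, Pcbp2) and for Grasp, a gene of the stretch that is no member (circles epidermis, squares skin; blue Krt1+/+, red Krt1-/-; filled detected, open not detected; line, mean of 3). Genotypes are apart in both tissues for each gene shown except Tfcp2, which overlaps in skin.

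The 11 probes that passed in both tissues in opposite directions were led by Eif4b. Eif4b encodes an initiation factor that helps the helicase eIF4A unwind messenger RNA, and it lies close to Krt1, at 8. Probe ILMN_1243394 read 8.48, 8.79 and 8.71 in Krt1+/+ epidermis and 5.62, 5.56 and 5.89 in Krt1-/- epidermis. In skin it read 5.64, 5.13 and 5.94 against 7.91, 7.76 and 8.04. The Krt1+/+ arrays were high in epidermis and low in skin, and the Krt1-/- arrays the reverse.

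This probe fell by 2.97 in epidermis (adjusted p = 9.5e-07) and rose by 2.33 in skin (adjusted p = 4.6e-06), and its average of −0.32 did not pass (adjusted p = 0.14). The difference of both effects was −5.30 (adjusted p = 7.3e-08). A second Eif4b probe, ILMN_2753323, gave 0.40 in epidermis and −0.77 in skin, of which neither passed (adjusted p = 0.57 and 0.26). The 6 high arrays are those of the first 6 sample columns, so the difference between the tissues and the column set cannot be told apart.

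The same arrays were high for Dazap2, a neighbour of Pou6f1 that encodes a proline-rich adaptor protein. It read 11.67, 11.89 and 11.75 in Krt1+/+ epidermis, 10.31, 9.83 and 10.32 in Krt1-/- epidermis, 10.37, 10.01 and 10.65 in Krt1+/+ skin and 11.39, 11.16 and 11.60 in Krt1-/- skin. It fell by 1.62 in epidermis and rose by 1.04 in skin (adjusted p = 7.3e-05 and 0.0020). Sp1, the factor that binds GC boxes, fell by 1.56 in epidermis and rose by 0.92 in skin by probe ILMN_2447846 (adjusted p = 1.1e-04 and 0.0048), whereas its dimmer probe gave 0.57 and 0.32 and did not pass in either. Hnrnpa1, a splicing regulator, fell by 1.34 in epidermis (adjusted p = 8.0e-04) and its 0.40 in skin did not pass (adjusted p = 0.23). The other Hnrnpa1 probes read it differently. ILMN_3096701 fell by 0.93 in epidermis (adjusted p = 0.0055) and gave 0.09 in skin (adjusted p = 0.80), while the dimmest, ILMN_3024068, gave 0.07 in epidermis (adjusted p = 0.86) and fell by 0.77 in skin (adjusted p = 0.029).

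Other members ran the opposite way, higher on the last 6 columns. Calcoco1, a coactivator of nuclear receptors that also serves as an autophagy receptor, read 5.55, 5.99 and 6.97 in Krt1+/+ epidermis, 7.57 to 8.08 in Krt1-/- epidermis, 8.38, 8.20 and 7.05 in Krt1+/+ skin and 5.32, 5.86 and 5.68 in Krt1-/- skin. It rose by 1.72 in epidermis (adjusted p = 0.0032) and fell by 2.26 in skin (adjusted p = 5.8e-04). Zfp385a, a zinc finger protein, rose by 2.19 in epidermis (adjusted p = 0.0015) and fell by 1.71 in skin (adjusted p = 0.0080).

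Rarg, the retinoic acid receptor most abundant in epidermis, rose by 1.57 in epidermis and fell by 1.19 in skin by its dimmer kept probe, ILMN_2618068 (adjusted p = 0.0015 and 0.0093), which went undetected on each Krt1-/- skin array and was at least 1.95-fold lower there. Its brighter probe gave 0.17 and −0.44, of which neither passed (adjusted p = 0.59 and 0.14). Atf7, a relative of the cAMP-responsive factors, rose by 0.76 in epidermis and fell by 1.64 in skin (adjusted p = 0.0059 and 3.1e-05), which left an average of −0.44 (adjusted p = 0.029). This average was lost in 5 of 12 runs with 1 array left out (adjusted p = 0.062 to 0.067) and also with median centring (adjusted p = 0.13) and with quantile normalization within tissue (0.056). The arrays were Krt1+/+ epidermis replicate 3, Krt1-/- epidermis replicate 1, Krt1+/+ skin replicates 1 and 2 and Krt1-/- skin replicate 1. Tarbp2, Copz1, Spryd3 and Aaas also passed in both tissues by 1 probe each, with rises of 0.57 to 0.80 in epidermis and changes of −0.85 to −0.69 in skin. The other kept probe of Tarbp2, of Copz1 and of Spryd3 did not pass in both tissues.

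**Figure D4:**
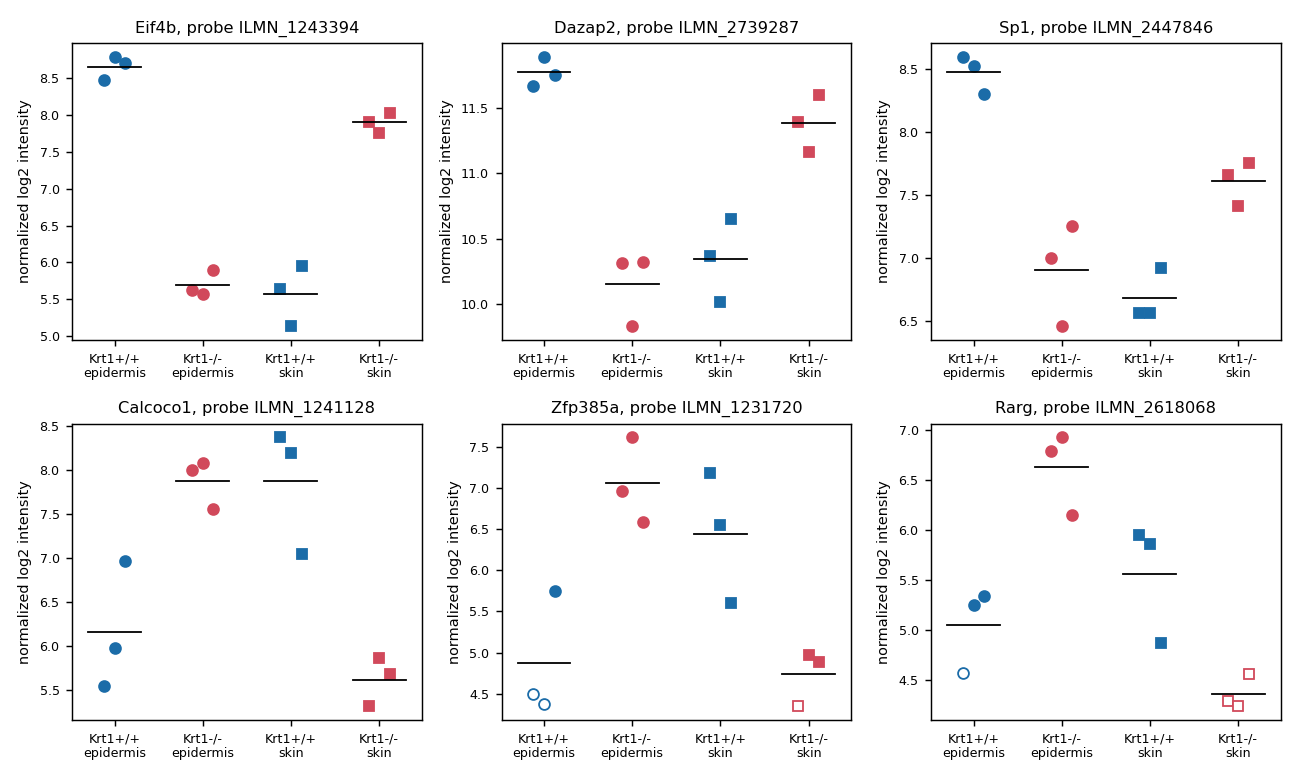
Normalized log2 intensity on each array for 6 members that passed in both tissues in opposite directions (circles epidermis, squares skin; blue Krt1+/+, red Krt1-/-; filled detected, open not detected; line, mean of 3). Eif4b, Dazap2 and Sp1 are high on the Krt1+/+ epidermis and Krt1-/- skin arrays, and Calcoco1, Zfp385a and Rarg are low on them.

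The difference between the genotype effects of the tissues passed for 24 of 59 member probes (40.7%), 15 of them with the higher effect in epidermis and 9 with the higher effect in skin, against 32.1% of all probes (17.4% and 14.7%). Its median was 0.21 for the members and 0.11 for all probes.

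Itga5 and Igfbp6, both read higher in skin than in epidermis of Krt1+/+ mice, fell in Krt1-/- skin. By probe ILMN_2849449, Itga5, the alpha chain of the fibronectin receptor, read 7.94, 6.77 and 5.94 in Krt1+/+ skin and 5.21, 4.97 and 4.48 in Krt1-/- skin. It fell by 2.00 there (adjusted p = 0.0026). The other kept Itga5 probe is not described here. Igfbp6, a binding protein of insulin-like growth factor 2, read 8.02, 7.11 and 7.71 against 6.46, 6.37 and 5.93 and fell by 1.36 (adjusted p = 0.0013). The genotypes did not overlap in skin for either. In epidermis neither passed, with 0.74 for Itga5 and 0.63 for Igfbp6 (adjusted p = 0.19 and 0.071).

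Of 9 measured dermal fibroblast markers, 0 were higher and 4 were lower in Krt1-/- skin, and their summed intensity was 44373 to 55237 in Krt1+/+ skin and 25703 to 28883 in Krt1-/- skin. In epidermis 3 of them were higher and 1 was lower in Krt1-/-, with rises of 2.23 for Col1a1, 1.54 for Sparc and 1.02 for Col6a2, and the sum was 4824 to 7230 in Krt1+/+ and 4492 to 5924 in Krt1-/-. Of 7 measured endothelial markers, 6 were lower in Krt1-/- skin, with sums of 2060 to 2617 against 906 to 1331. The part of these cells in the falls of Itga5 and Igfbp6 was not tested. Espl1, the separase that parts sister chromatids, fell by 0.87 in skin (adjusted p = 0.0043), and Larp4, which binds poly(A) tails, rose by 0.83 (adjusted p = 0.011).

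Between the tissues of Krt1+/+ mice, 21 of 59 member probes (35.6%) passed, 11 higher and 10 lower in skin, against 39.0% of all probes (17.7% and 21.3%). This contrast shares its arrays with the genotype contrasts and also sets the column sets against each other, which cannot be told apart from tissue. Igfbp6, undetected on all 3 Krt1+/+ epidermis arrays, was at least 7.62-fold higher in Krt1+/+ skin, and Pou6f1 differed by 0.16 between the Krt1+/+ tissues, with means of 6.93 ± 0.08 (SD, n = 3) in epidermis and 7.08 ± 0.48 (SD, n = 3) in skin.

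Placed along the chromosome, 7 of 20 member probes on the Pou6f1 side of Krt1 passed in the average, 5 higher and 2 lower, and 8 of 39 (20.5%) on the other side, 1 higher and 7 lower, against 20.1% of all probes. Pou6f1, chosen for its fall, is among the 7 on its own side, as is a Dip2b probe kept through its Krt1-/- arrays alone. The median average change was 0.07 on the Pou6f1 side and −0.19 on the other. Ordered by distance, the nearest 15 members (6 to 22 genes from Krt1) had 2 of 18 probes (11.1%) past the threshold, the next 15 (23 to 34 genes) 8 of 19 (42.1%), and the farthest 15 (35 to 50 genes), Pou6f1 among them, 5 of 22 (22.7%). The share was lowest among the nearest members, but all 18 of their probes lay on the side away from Pou6f1. For these members, distance and side cannot be told apart. The type II keratins around Krt1 were no members and are not in this ordering. In the nearest group both probes that passed were of Pfdn5, whose calls were lost in 8 of 12 runs with 1 array left out. A pass in the average need not be a shift in both tissues, since Galnt6 passed through skin and Atf7 passed in opposite directions. By the test in each tissue with the same direction, 0 of the nearest 18 probes passed. In the next group 1 of 19 did (5.26%, Smagp, higher). In the farthest 2 of 22 did (9.09%, lower), of Nfe2 and of Pou6f1, which was chosen for its fall. Of all probes, 2.66% were higher and 1.65% lower in this way. No test of these shares was made.

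Probes of other genes in the stretch numbered 57, of 39 genes, and 15 of them (26.3%) passed in the average, 9 higher and 6 lower. The 57 include the probe of Krt1 itself, the inactivated gene, which is among the 6 lower. Gm5477, among the 9 higher, was undetected on all Krt1+/+ arrays and was kept through its Krt1-/- arrays alone. Gm9918, among the 6 lower, was undetected on all Krt1-/- arrays and was kept through its Krt1+/+ arrays alone. The share of 26.3% therefore holds calls that the choice of genes or the filter favoured. On the rest of chromosome 15 it was 133 of 663 (20.1%), and among all probes 20.1%. Among the 57, 7 (12.3%, of 5 genes) were higher and 2 (3.51%) lower in both tissues by the test in each. Of all probes, 2.66% and 1.65% were. Those that were higher belonged to the keratin genes Krt6a, Krt6b, Krt77 and Krt84 and to C330013E15Rik, and those that were lower to Cela1 and Grasp. Krt6b, a keratin of stressed and wounded epidermis, rose by 6.29 in the average (adjusted p = 5.4e-07).

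**Figure D5:**
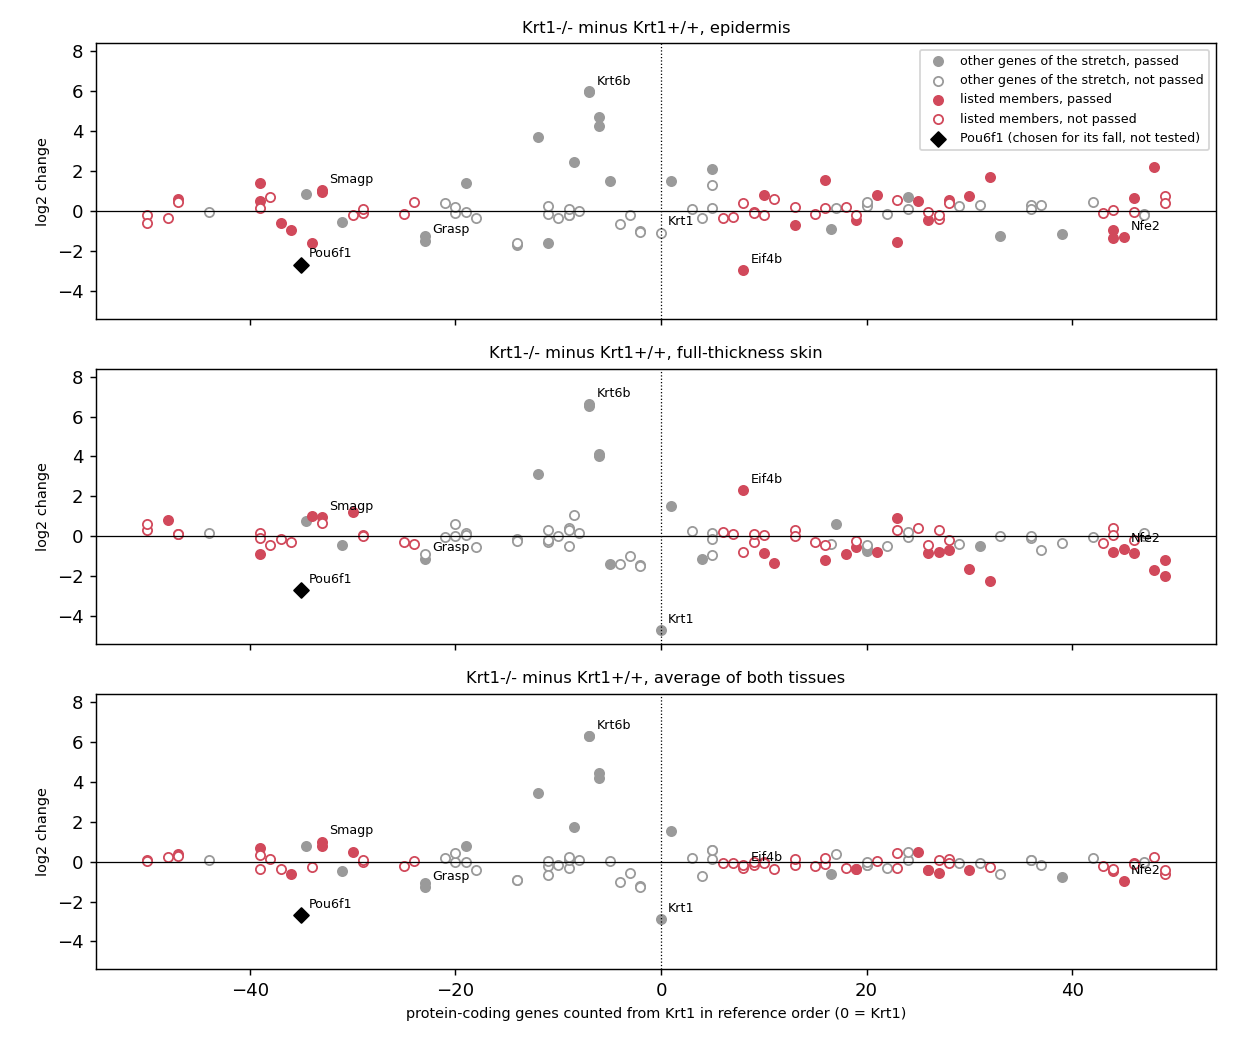
Log2 change (Krt1-/- minus Krt1+/+) of each kept probe against the place of its gene, counted in protein-coding genes from Krt1, in epidermis, skin and their average (red, members; grey, other genes of the stretch; filled, passed; open, not passed; black, Pou6f1). Pou6f1, at −2.68 in the average, has the largest fall on its side in each panel, and the largest rises are those of the keratins Krt6b and Krt6a near Krt1.

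Genes of the stretch that are no members were chosen for naming after their values were seen. Grasp, a scaffold protein for receptors that lies at 23 on the Pou6f1 side, read 9.28, 9.47 and 9.72 in Krt1+/+ epidermis and 7.85, 7.91 and 8.29 in Krt1-/- epidermis by probe ILMN_2596396. In skin it read 9.38, 9.02 and 9.67 against 7.98, 8.48 and 8.26, so the genotypes were apart in both tissues. Grasp fell by 1.47 in epidermis, by 1.12 in skin and by 1.30 in the average (adjusted p = 7.9e-05), and a second probe fell by 1.06 in the average (adjusted p = 0.013, or 0.0505 with no detection filter).

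Cela1, an elastase-like protease encoded at 31 on the same side, fell by 0.49 in the average (adjusted p = 0.0069) and was undetected on all Krt1-/- epidermis arrays. C330013E15Rik, a transcript annotated between Pou6f1 and Dazap2, rose by 0.85 in epidermis, by 0.74 in skin and by 0.80 in the average (adjusted p = 0.0021), with Krt1-/- arrays at 5.48 to 6.32 and Krt1+/+ arrays at 4.92 to 5.32. From Tfcp2 to Smagp, the direction of the average was thus lower for Tfcp2 and Pou6f1, higher for C330013E15Rik and Smagp, and not settled for Dazap2 (−0.29, adjusted p = 0.18).

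Detection on all 6 Krt1+/+ arrays and on 0 of 6 Krt1-/- arrays, the pattern of Pou6f1, was shown by 5 of 21712 probes (0.0230%). Pou6f1 had been chosen for this loss and counts for nothing here. Of the others, Gm9918, a noncoding transcript between Rarg and Espl1, lay in the stretch around Krt1. The remaining 3 were Bsnd on chromosome 4, Ccdc15 on chromosome 9 and Ctps2 on chromosome X. Gm9918 read 5.13, 5.60 and 5.03 against 4.61, 4.21 and 4.24 in epidermis and 4.72, 4.90 and 4.84 against 4.35, 4.49 and 4.46 in skin. It was close to the detection limit, and since this pattern chose it, its values are a description with no test.

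The reverse pattern, detection on 0 of 6 Krt1+/+ and all 6 Krt1-/- arrays, was shown by 18 probes (0.0829%), of which 1 was on chromosome 15 and 0 in the stretch.

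The probes whose values over the 12 arrays were most like those of Pou6f1, by Pearson correlation, were of Ccdc15 (r = 0.974), Ttc3 (0.961), Disp1 (0.961), Antxr1 (0.958) and Grasp (0.954). They lie on chromosomes 9, 16, 1, 6 and 15. These 12 points share 4 group means and 1 normalization, and the correlations are a description. Grasp is the single gene of these 5 in the stretch around Krt1.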

How the data were processed

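The deposited non-normalized table holds bead intensity values for 45281 probes with a detection p-value beside each value, per the file headers. A second deposited table of normalized intensity had the same ranks within arrays (rank correlation 1), and the sources used here do not give its method. The median signal was 93.3 to 105.1, close to that of undetected probes. The members and lists were chosen with earlier results of these data known.

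Intensities were background-corrected from detection p-values, quantile normalized over 12 arrays (neqc, offset 16) and taken as log2, so a log2 value is of corrected intensity. The 4 groups from the labels were fitted with limma 3.58.1 in R 4.3.3 (lmFit and eBayes on group contrasts, with 8 residual degrees of freedom and 5.59 from the prior) on the 21712 probes with detection p under 0.05 on at least 3 arrays. Adjusted p is by Benjamini-Hochberg over these probes. The average is the mean of both genotype contrasts. Each probe was kept apart. Symbols came from the platform annotation, updated through the gene ID (34807 probes) or the accession (11); 67 were kept as annotated, 18 probes had several and 10378 none. No chromosome positions of probes were used.

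The text names Pou6f1 and Krt1, members that passed in the average or in the same direction in both tissues, the 5 largest rises and falls among member probes that passed in each tissue and in the difference of effects, and the 5 genes most like Pou6f1. Csrnp2, Igfbp6, Espl1, Larp4 and the members that passed in opposite directions beyond these were named after their values were seen. Alternatives were other background, scaling, filter and variance settings, the deposited normalized table, the brightest probe of each gene, the arrays of 1 tissue alone, the replicate number as a block and each array left out. The number of arrays limits the precision.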

Additional observations from a re-analysis of the deposited data

Results flagged for a closer look

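The genotype effect differed between the tissues for 12 of the named member probes, by the test of that difference (effect in epidermis minus effect in skin, log2, limma adjusted p over all probes). The difference was negative for Eif4b ILMN_1243394 (−5.30, adjusted p = 7.3e-08), Dazap2 (−2.65, adjusted p = 1.3e-05), Sp1 ILMN_2447846 (−2.49, adjusted p = 2.8e-05), Hnrnpa1 ILMN_1244536 (−1.74, adjusted p = 0.0013) and Galnt6 (−1.40, adjusted p = 0.0028). It was positive for Calcoco1 (3.97, adjusted p = 6.8e-05), Zfp385a (3.90, adjusted p = 2.2e-04), Rarg ILMN_2618068 (2.77, adjusted p = 2.4e-04), Itga5 ILMN_2849449 (2.73, adjusted p = 0.0025), Atf7 (2.40, adjusted p = 1.2e-05), Slc11a2 ILMN_2578829 (1.498, adjusted p = 0.0011) and Pcbp2 ILMN_2599777 (0.80, adjusted p = 0.016). Each of these differences is also one between the first 6 and the last 6 sample columns, from which it cannot be told apart.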

How the results depend on the processing

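Of 171 recomputed values of the 8 main results, 157 kept their size and 14 moved. The balance of higher and lower member probes turned in some of these runs. The Pou6f1 change was smaller without background correction, at −1.11 in epidermis, −1.14 in skin and −1.12 in the average, and by the deposited normalized table, at −1.12, −1.14 and −1.13. With single arrays left out it was −2.72 to −2.63 in epidermis, −2.97 to −2.51 in skin and −2.82 to −2.57 in the average. The average count of 15 member probes became 9 with median centring and 9 with the replicate block, and the epidermis count of 26 became 17 with each gene read by its brightest kept probe. Leaving out single arrays gave 16 to 27 in epidermis, 17 to 26 in skin, 8 to 15 in the average, 21 to 26 for the difference of effects and 13 to 22 between the Krt1+/+ tissues. The counts moved most without Krt1-/- epidermis replicate 2 (16) or Krt1+/+ epidermis replicate 2 (17) in epidermis, without Krt1-/- skin replicate 1 in the average (8) and without Krt1+/+ skin replicate 1 between tissues (13). The cause was not tested.

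Other scalings changed the split of directions: skin gave 11 higher and 16 lower with median centring, in place of 6 and 19. The average, at 6 higher and 9 lower, became 5 and 4 both with median centring and with the replicate block. Without background correction it was 4 higher and 13 lower. Epidermis, at 14 higher and 12 lower, became 8 and 9 with each gene read by its brightest kept probe. Between the Krt1+/+ tissues, 11 and 10 became 8 and 15 with median centring and 9 and 14 with quantile normalization within tissue. Median centring moved the median of all probes from −0.07 to 0.03 in skin, from 0.11 to −0.02 for the difference and from −0.03 to −0.23 between tissues. Within each tissue, Krt1+/+ and Krt1-/- samples of the same number deviated from their group means with correlations of −0.249 to 0.085. Epidermis and skin of the same number were not compared, so whether the numbers pair samples was not settled. With the replicate block 20 member probes passed in epidermis, 21 in skin and 22 for the difference.

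Of 1037 recomputed values of 49 named probe results, 967 kept their call, 70 lost it and 0 reversed. In the average, Nfe2, Tfcp2, both Smagp probes, Slc11a2 ILMN_2578829, Cela1, C330013E15Rik and Grasp ILMN_2596396 passed under every alternative run. The Slc11a2 average came from epidermis (1.41, with −0.09 in skin). Its brightest probe, ILMN_1243129, gave −0.37 in the average and did not pass (limma adjusted p = 0.12). Dim probes such as Gm9918 and Dip2b lie near the detection limit, where background compresses changes.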
